A study of Homo sapiens with 6 samples.

Results

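The loci of 8 genes were examined, namely FOS, FOSB, FOSL1, FOSL2, JUN and JUNB, which encode subunits of the transcription factor AP-1, and EGR1 and ATF3, which encode other transcription factors of the immediate early response. Each locus was a fixed window of the genome build hg19, 30 to 110 kb wide and 520 kb in sum. A peak belonged to a locus when its midpoint lay in that window. The windows held 124 of the 157560 accessible regions that were found when overlapping peaks of all libraries were merged. The windows were chr14:75710001-75780000 for FOS, chr19:45950001-46000000 for FOSB, chr11:65640001-65690000 for FOSL1 and chr2:28580001-28660000 for FOSL2. Those of the other genes were chr1:59210001-59280000 for JUN, chr19:12890001-12920000 for JUNB, chr5:137770001-137830000 for EGR1 and chr1:212710001-212820000 for ATF3.

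The measurements were ATAC-seq peak lists, which record where the Tn5 transposase could cut open chromatin, from ventricular-like cardiomyocytes at day 15 of their differentiation. They were made from H9, a line of human embryonic stem cells. The groups were 3 libraries with knockdown of ZNF436, a zinc finger protein, and 3 control libraries. The libraries of both groups came from independent differentiations with a commercial kit, of cells released with trypsin before the nuclei were isolated. All libraries thus share 1 cell line. How the knockdown was made and what the control cells carried is not stated in the sources used here. The cell type and the knockdown itself were not checked here, since no gene annotation of hg19 was used.

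AP-1 is a dimer of basic leucine zipper proteins. Jun proteins can pair with themselves or with Fos proteins, whereas Fos proteins need a Jun partner, and the dimers bind a short palindromic DNA element. FOS, JUN and EGR1 are immediate early genes, which cells transcribe within minutes of a growth factor, stress or stretch signal without making new protein, and in the heart they are known for their induction by mechanical load and by neurohormonal stimulation. ATF3 is a stress-induced member of the ATF family that can pair with Jun proteins, and EGR1 is a zinc finger protein that binds GC-rich DNA.

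The promoter sequences of the members on which the results below turn most are shown here, since signal-regulated factors act on these genes partly through short elements close to the start. They are RefSeq sequences of the build GRCh38, printed 5′ to 3′ on the strand of the gene, from 250 bases before to 50 bases after the annotated start. Of the 8 members, 7 had an entry, ATF3 with a pair of promoters of which the first is printed, and FOSL1 had none. Capitals mark matches, on either strand, to the AP-1 site TGANTCA, the cyclic AMP response element type site TGACNTCA, the first part of that element TGACGT, the CArG box (a run of A and T between CC and GG, the site of serum response factor), the EGR site GCGNGGGCG and the TATA box TATAAA. Matches to the second and the third motif can overlap.
FOS: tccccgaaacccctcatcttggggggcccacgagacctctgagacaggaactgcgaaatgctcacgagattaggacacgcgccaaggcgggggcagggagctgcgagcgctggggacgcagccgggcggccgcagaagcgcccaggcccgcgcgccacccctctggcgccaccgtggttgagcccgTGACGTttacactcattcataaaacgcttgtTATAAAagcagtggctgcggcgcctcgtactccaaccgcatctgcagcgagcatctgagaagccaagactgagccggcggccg
JUN: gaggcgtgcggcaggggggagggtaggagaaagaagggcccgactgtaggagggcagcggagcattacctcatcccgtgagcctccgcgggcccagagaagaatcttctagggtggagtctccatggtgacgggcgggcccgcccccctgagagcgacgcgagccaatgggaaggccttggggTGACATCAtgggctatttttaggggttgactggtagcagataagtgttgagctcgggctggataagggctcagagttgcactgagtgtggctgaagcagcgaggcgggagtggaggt
EGR1: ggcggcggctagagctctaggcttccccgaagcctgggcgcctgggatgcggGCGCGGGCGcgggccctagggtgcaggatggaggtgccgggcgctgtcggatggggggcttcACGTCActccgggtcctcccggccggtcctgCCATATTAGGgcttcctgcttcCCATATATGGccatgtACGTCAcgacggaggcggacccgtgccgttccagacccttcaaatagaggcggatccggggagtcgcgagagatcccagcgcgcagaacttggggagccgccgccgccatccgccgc
ATF3: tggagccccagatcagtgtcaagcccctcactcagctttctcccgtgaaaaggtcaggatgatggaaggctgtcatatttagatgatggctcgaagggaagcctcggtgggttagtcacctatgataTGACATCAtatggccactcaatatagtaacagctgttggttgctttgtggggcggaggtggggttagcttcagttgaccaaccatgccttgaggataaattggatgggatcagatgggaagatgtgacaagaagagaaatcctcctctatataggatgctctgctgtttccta

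The EGR1 promoter held a pair of CArG boxes, at positions -105 and -83 from the gene's start, and 1.29% of all 35116 promoters of the table held at least 1. The JUN promoter had TGACATCA at position -67 and the first ATF3 promoter had the same 8 letters at -123. Sites of this type, TGACNTCA, were found in 7.72% of all promoters. TGACGT was found in the promoters of FOS, FOSB, FOSL2 and EGR1 and in 7.98% of all promoters. An AP-1 site was found in the FOSL2 promoter alone among the 8 member promoters and in 7.71% of all promoters. The EGR1 promoter held an EGR site, found in 9.43% of all promoters, and TATAAA was found in 4 member promoters and in 11.5% of all. These matches are letters in a window and do not show binding. The promoters could not be placed among the peaks, because the 2 sets of coordinates belong to different builds.

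The knockdown lists held 87871 to 115864 peaks and the control lists 50719 to 68342, a ratio of means of 1.773. Group values per library were compared with a two-sided exact permutation test, for which 3 against 3 libraries allow no p below 0.1, and this one gave p = 0.1. The sequencing depth is unknown, so that depth and group cannot be told apart in these lengths. In bulk cells, more cells with an open site and a site that is open in more copies per cell cannot be told apart either. Values are therefore given as deposited, as a share of each list, and for lists cut to equal length.

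Chromatin at the 8 loci was called open over more bases in knockdown cells, but their peak number was higher by a smaller factor than that of whole lists. The 8 windows together held 100, 101 and 97 peaks in the knockdown libraries, against 71, 73 and 88 in the control libraries. Every knockdown library was above every control library, with a mean of 99.3 ± 2.08 peaks in knockdown and 77.3 ± 9.29 in control (SD, n = 3 each; exact permutation p = 0.1). The ratio was 1.28, against 1.773 for whole lists. In the windows of ATF3 and EGR1, 2 of the 8, every knockdown library had more peaks than every control library, as in 33.4% of all 50 kb bins and windows with a mean of at least 2 peaks. The reverse was found in 0 of the 8 windows and in 0.520% of all. As a share of the list, the windows took 0.0863, 0.0986 and 0.110% of peaks in knockdown and 0.140, 0.136 and 0.129% in control, so that here every knockdown library was below every control library (exact permutation p = 0.1). With each list cut to its 50719 strongest peaks, the number as well was lower, with 56, 56 and 55 peaks in knockdown against 71, 71 and 66 in control. Every knockdown library then had fewer peaks than every control library in 2 of the 8 windows, JUNB and EGR1, as in 8.07% of the 8962 features tested with such lists. The opposite was found in 0 windows and in 4.86% of those features. At this length the list of control replicate 1 is whole, while the knockdown lists lose their weaker peaks. In the stronger part of each list, the peaks at or above its own median score, the windows held 60, 59 and 50 peaks in knockdown and 36, 37 and 50 in control. These parts were not cut to equal length. As a share of them, the windows took 0.0967, 0.110 and 0.112% in knockdown and 0.141, 0.135 and 0.142% in control.

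The bases under peaks gave another view of the same loci. Peaks covered 75.1, 70.4 and 69.2 kb of the windows in the knockdown libraries and 40.8, 38.8 and 52.3 kb in the control libraries, a ratio of 1.63 (exact permutation p = 0.1), against 1.85 for whole lists. In each of the 8 windows, every knockdown library had more bases covered than every control library. Of all bins of 50 kb and windows with a mean of at least 2 peaks, 76.3% did so, as did 75.9% of those with a mean of at least 5.33 peaks, the mean of the sparsest member, JUN. The count of 8 of 8 is therefore what most of the genome showed as well. The ratio ran from 1.40 at EGR1, with 9.65, 9.50 and 10.6 kb in knockdown and 7.01, 6.13 and 8.16 kb in control, to 2.46 at ATF3, with 8.49, 7.50 and 6.60 kb in knockdown and 2.92, 2.53 and 3.73 kb in control. Between these lay FOS (1.46), FOSL1 (1.57), JUNB (1.62), FOSB (1.64), JUN (1.66) and FOSL2 (1.89). More bases were covered per shared region in knockdown. In the 41 regions of the windows called in all 6 libraries, the lists held 52, 57 and 52 peaks in knockdown and 56, 64 and 58 in control, while the bases covered averaged 1380 ± 52.6 bp per region in knockdown and 969 ± 108 bp in control (SD, n = 3 each). Over all 28749 regions called in all 6 libraries, the mean was 852 ± 36.6 bp in knockdown and 635 ± 40.5 bp in control (SD, n = 3 each).

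**Figure D1:**
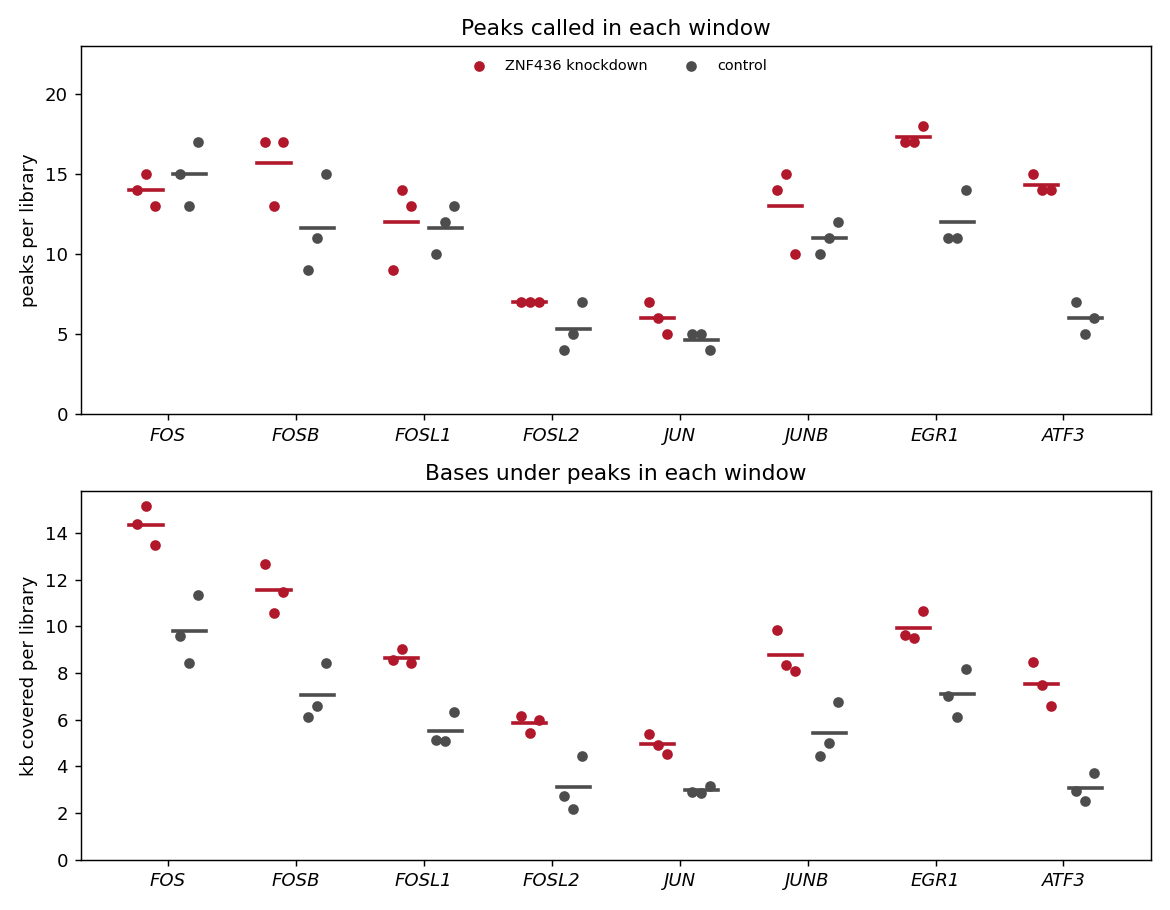
Peaks called (upper panel, number per library) and bases under peaks (lower panel, kb per library) in the window of each gene. Points are libraries, 3 for ZNF436 knockdown and 3 for control, and lines are group means. In the lower panel the knockdown points lie above the control points in all 8 windows, whereas in the upper panel they do so for EGR1 and ATF3.

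To set each window against the rest of the genome, its peaks as a share of the list were compared in limma together with 50 kb bins, 14414 features in all. Of these, 0.826% were called higher and 5.72% lower in knockdown at a Benjamini-Hochberg adjusted p under 0.05, and the median log2 change was -0.19. Changes below are given relative to that median, while the adjusted p is that of the change before the median is taken off. Of the 8 windows, 0 were called higher and 2 lower, FOS and FOSL1. Dense bins were called lower more often, 15.6% of those with a mean of at least 5.33 peaks. At an unadjusted p under 0.05, 3 of the 8 windows (these and JUNB) were lower, as were 21.9% of all features and 38.9% of the dense ones, so that the windows were near that background. By the same threshold 0 windows and 5.74% of all features were higher. With the stronger part of each list, the windows called lower were JUNB and FOSB and not FOS or FOSL1. Without scaling to the list, the change before the median is taken off was above 0 in 7 of the 8 windows. For the dense bins, the median change was -0.16 relative to that of all features. The median of the 8 windows was -0.28 on that scale. The dense bins had a median of 6.83 mean peaks and the windows one of 11.9. These are peaks per feature and not per kb, and dense is meant here in that sense only. The bins are 50 kb wide and the windows 30 to 110 kb, so that the sets were matched neither in peak number nor in width.

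**Figure D2:**
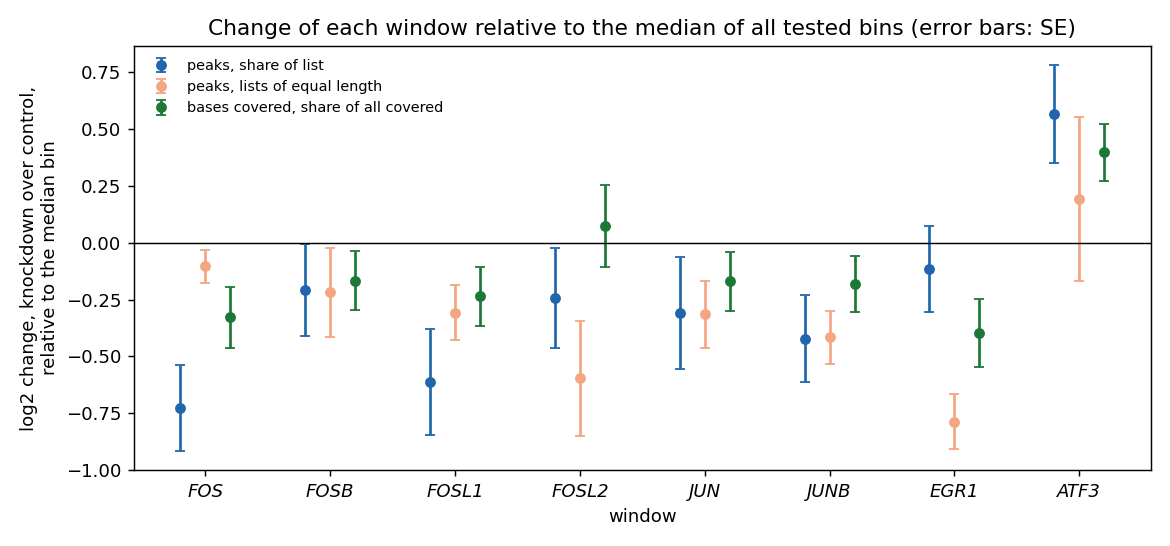
Log2 change of each window, knockdown over control, relative to the median of all tested 50 kb bins and windows, with the standard error from limma as bars (3 libraries a group). Blue points are peaks as a share of the list, orange points are peaks with lists of equal length by score, and green points are bases covered as a share of all covered bases. The ATF3 points lie above 0 in all 3 measures, and the FOS point moves from -0.73 for the share of the list to -0.10 with lists of equal length.

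Over all 8 loci, more regions were called in knockdown. The knockdown libraries called 88, 83 and 85 of the 124 regions and the control libraries 56, 50 and 71 (exact permutation p = 0.1), a ratio of 1.45 against 1.87 for all regions of the genome. In the windows of JUN, EGR1 and ATF3, 3 of the 8, every knockdown library called more regions than every control library, as in 37.5% of all bins and windows and 40.1% of the dense ones, which is near the background. All 6 libraries shared 41 of the 124, where 18.2% of all regions of the genome were shared. Their median width was 1209 bp, and 873 bp for shared regions of the genome. A further 38 had a peak in a single library, where the genome had 38.3%. A score percentile is the share of a list's peaks with the same or a lower score in the authors' deposited list. Since the lists differ in length, percentiles place a region within its library and show no change between groups. The strongest shared region of a window is taken here as the one whose lowest percentile over the 6 lists is highest. It had percentiles from 91.2 to 99.5 in every list, was between 1209 and 4234 bp wide, and was also the widest of its window for 5 of the 8 genes.

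Regions called in all 3 knockdown and no control libraries numbered 8 of the 124, where 7.72% of all regions of the genome were called so, so that the loci were near the background. There were 3 at ATF3, 2 at FOSL2 and 1 each at FOSL1 (chr11:65679258-65679591), JUN and JUNB, and 0 at FOS, FOSB and EGR1. Their median width was 465 bp, and in the knockdown lists their percentiles ran from 7.11 to 66.3. In lists cut to equal length, 3 of the 8 still had a peak in some list. The number rose to 14 without knockdown replicate 1 and to 16 without control replicate 3. Leaving out a library loosens the rule, which by itself can only keep or raise the number. A further 9 had peaks in all knockdown libraries and 1 control library, where the genome had 7.63%. They lay at EGR1 (3), ATF3 (2), FOS, FOSB, FOSL2 and JUN, and the 1 at FOSL2 was chr2:28589481-28590036. The 1 control library was replicate 3, which has the longest control list, for 7 of the 9 and replicate 2 for the others.

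Regions called in all 3 control and no knockdown libraries numbered 2 of the 124, where 0.131% of all regions of the genome were called so. They were chr11:65684861-65685360 at FOSL1, with percentiles of 7.68 to 23.5 in the control lists, and chr5:137784651-137785020 at EGR1, with 10.3 to 33.3. Both ranked low in every control list, and without control replicate 1 the number was 1. The first lay 405 bp from the strongest region of the FOSL1 window. When peaks within 100 bp of each other were merged, it became part of that region, which all libraries shared. The second kept its calls under that merging.

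**Figure D3:**
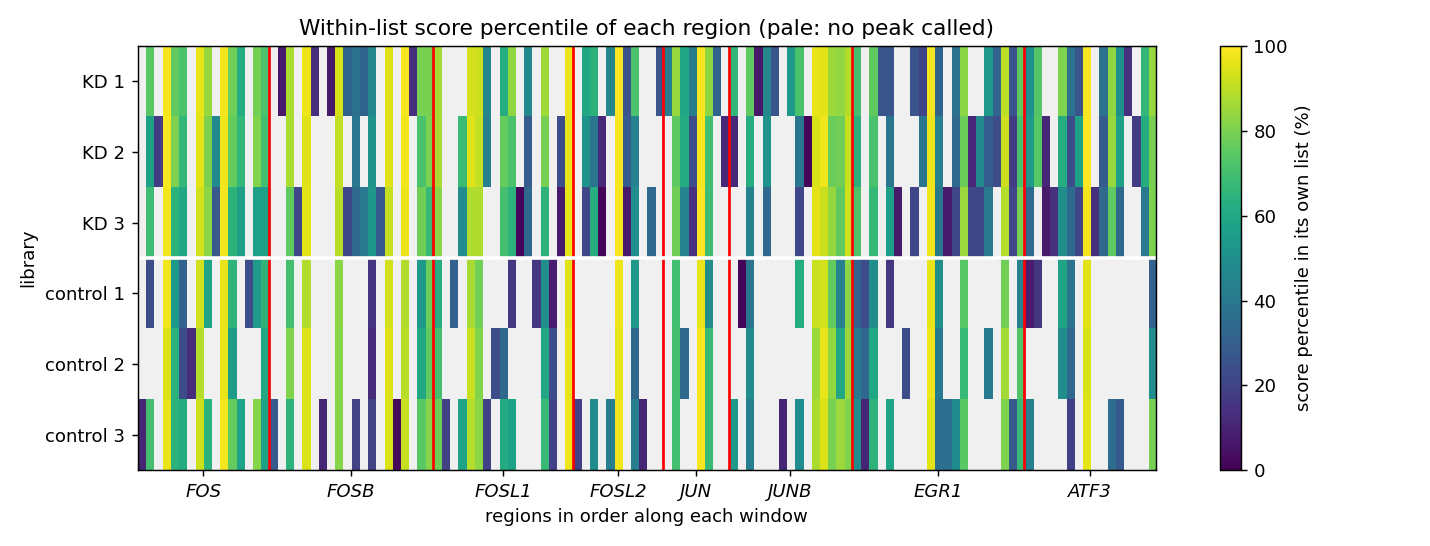
Score percentile, within its own list, of each of the 124 regions (columns, in order along each window, red lines between genes) in the 3 knockdown libraries (upper rows, KD) and the 3 control libraries (lower rows). Pale cells have no peak. The 41 regions called in all libraries form the full-height columns, and the ATF3 block shows several columns filled in the knockdown rows with pale control cells.

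Among the Fos genes, FOS, the founding member and a classic immediate early gene, had the most peaks by the mean of all 6 libraries, though FOSB had more in knockdown, and its numbers were much alike in both groups. Its window held 14, 15 and 13 peaks in the knockdown libraries and 15, 13 and 17 in the control libraries. The groups overlapped, and FOS was the only window whose mean peak number was lower in knockdown. Counted as regions and not as peaks, it had 11, 13 and 12 called in knockdown and 11, 8 and 12 in control. The mean of the regions was thus higher in knockdown. Per 10000 peaks of the list, the window held 1.21, 1.46 and 1.48 in knockdown and 2.96, 2.42 and 2.49 in control. This share fell by 0.73 on the log2 scale relative to the median (limma, log2 change -0.92, SE 0.19, adjusted p = 0.0175). The call was lost when libraries were scaled to the median ratio over bins (adjusted p = 0.0836) and when they were not scaled (adjusted p = 0.699). Scaling shifts all features of a library alike, so the change relative to the median stays at -0.73 there by construction. The call was also lost without knockdown replicate 1, where the relative change was -0.61 (adjusted p = 0.0731). It was lost with a smaller relative change for bases covered (-0.33, adjusted p = 0.119), with lists of equal length (-0.10, adjusted p = 0.525) and with the stronger part of each list (-0.03, adjusted p = 0.147).

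The window of FOS held a wide stretch of open chromatin that was called in every library. The region chr14:75743411-75751153, the widest of all windows with 7743 bp, was covered by 4, 3 and 2 peaks over 6964, 7206 and 7389 bp in knockdown, and by 5, 6 and 5 peaks over 4581, 4640 and 5619 bp in control. It was covered more fully in each knockdown library, by fewer peaks. A pair of strong regions lay on either side of it, chr14:75724718-75726674 and chr14:75760147-75762044, with score percentiles of 97.9 to 99.1 in knockdown and 94.6 to 97.9 in control for the first and of 97.8 to 98.3 in knockdown and 96.7 to 98.7 in control for the second. The region chr14:75770162-75770552 was called in all 3 knockdown libraries, with percentiles of 56.3 to 66.1, and in control replicate 3, with 57.8.

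FOSB encodes a Fos protein known for its stable short form in neurons. Its window held 17, 13 and 17 peaks in knockdown and 9, 11 and 15 in control. The groups overlapped through control replicate 3, and the relative log2 change was -0.21 (limma, SE 0.20, adjusted p = 0.212). Of its 20 regions, 8 had peaks in every library, 9 in a single library, and 0 were complete in 1 group and missing in the other. The strongest by its lowest percentile was chr19:45981312-45982520, with percentiles of 91.2 to 95.6 in knockdown and 93.3 to 95.2 in control. The region chr19:45988422-45989445 had percentiles of 96.9 to 98.6 in knockdown and 88.5 to 91.8 in control. Since the lists differ in length, these values show no change between groups. The widest, chr19:45970488-45974175, was covered by 2, 1 and 2 peaks in knockdown and by 3, 3 and 4 in control. Next to it, chr19:45974972-45976524 had 2 peaks in each knockdown library and 1 peak in control replicate 3.

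FOSL1 and FOSL2 encode the Fos-related antigens FRA1 and FRA2, which lack the strong activation domain of FOS. The FOSL1 window held 9, 14 and 13 peaks in knockdown and 10, 12 and 13 in control. Counted as regions, it had 9, 11 and 11 called in knockdown and 9, 8 and 11 in control. The numbers overlapped although the knockdown lists were longer. The share of peaks fell by 0.61 on the log2 scale relative to the median (limma, log2 change -0.81, SE 0.23, adjusted p = 0.0494). This call was lost without any 1 of the libraries other than knockdown replicate 2, with adjusted p up to 0.215 without knockdown replicate 1, where the relative change was -0.31. It was also lost with lists of equal length (adjusted p = 0.350), bases covered (0.223), scaling to the median ratio (0.211) and no scaling (0.958). Further losses came without the filter on mean peaks (0.0891), with peaks overlapping the window (0.0627) and with the stronger part of each list (0.0521). The call held with a pseudocount of 1 (0.0225), 100 kb bins (0.0481) and a replicate block (0.0214). The strongest region was chr11:65685766-65687835, with percentiles of 96.3 to 96.9 in knockdown and 95.4 to 97.3 in control.

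The FOSL2 window held 7 peaks in each knockdown library and 4, 5 and 7 in the control libraries (relative log2 change -0.24, SE 0.22, limma adjusted p = 0.212). In control replicates 1 and 2, 3 of 4 and 4 of 5 peaks were pieces of a single region, chr2:28612489-28616722. This region of 4234 bp was covered by 1, 2 and 1 peaks over 4111, 3920 and 4163 bp in knockdown and by 3, 4 and 2 peaks over 2546, 2035 and 3567 bp in control, and only 0.445% of all regions called in every library were as wide or wider. Counted as regions and not as peaks, the window had 7, 6 and 7 called in knockdown and 2, 2 and 6 in control, where control replicate 3 alone reached a knockdown value. Peaks in all knockdown and no control libraries marked chr2:28585826-28586184 and chr2:28618140-28618606.

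Among the Jun genes, JUN, whose protein is the most common partner of FOS, had the sparsest window and JUNB, whose protein is a weaker activator, a dense one. The JUN window held 7, 6 and 5 peaks in knockdown and 5, 5 and 4 in control (relative log2 change -0.31, SE 0.25, limma adjusted p = 0.196). Its groups touched at 5 peaks. Its strongest and widest region, chr1:59247489-59250592, was 1 unbroken peak of 3063, 2830 and 2361 bp in the knockdown libraries. In the control libraries it was called as 3, 2 and 2 peaks covering 2127, 1929 and 2211 bp, and its percentiles were 98.5 to 99.2 in knockdown and 96.7 to 99.1 in control. Counted as regions, the JUN window had 7, 6 and 5 called in knockdown and 3, 4 and 3 in control. Of the regions added, chr1:59246533-59247003 was called in all knockdown and no control libraries and chr1:59245520-59246253 in all knockdown libraries and control replicate 2. They lay 485 and 1235 bp from the nearest region that was called in every library.

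The JUNB window held 14, 15 and 10 peaks in knockdown and 10, 11 and 12 in control. The groups overlapped, and the relative log2 change was -0.42 (limma, SE 0.19, adjusted p = 0.0632), which came under the threshold with the stronger part of each list (relative change -0.28, adjusted p = 0.0147), with a pseudocount of 1 (adjusted p = 0.0368) and without control replicate 3 (adjusted p = 0.0494). With lists of equal length the window had 9, 7 and 7 peaks in knockdown and 10, 11 and 10 in control, which did not overlap. The strongest region, chr19:12902015-12905739, had 3 peaks in each knockdown library and 3, 5 and 3 in the control libraries, and covered 3286, 3087 and 2951 bp in knockdown and 1792, 2037 and 3010 bp in control. The region chr19:12894915-12896014 was called in all knockdown and no control libraries.

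**Figure D4:**
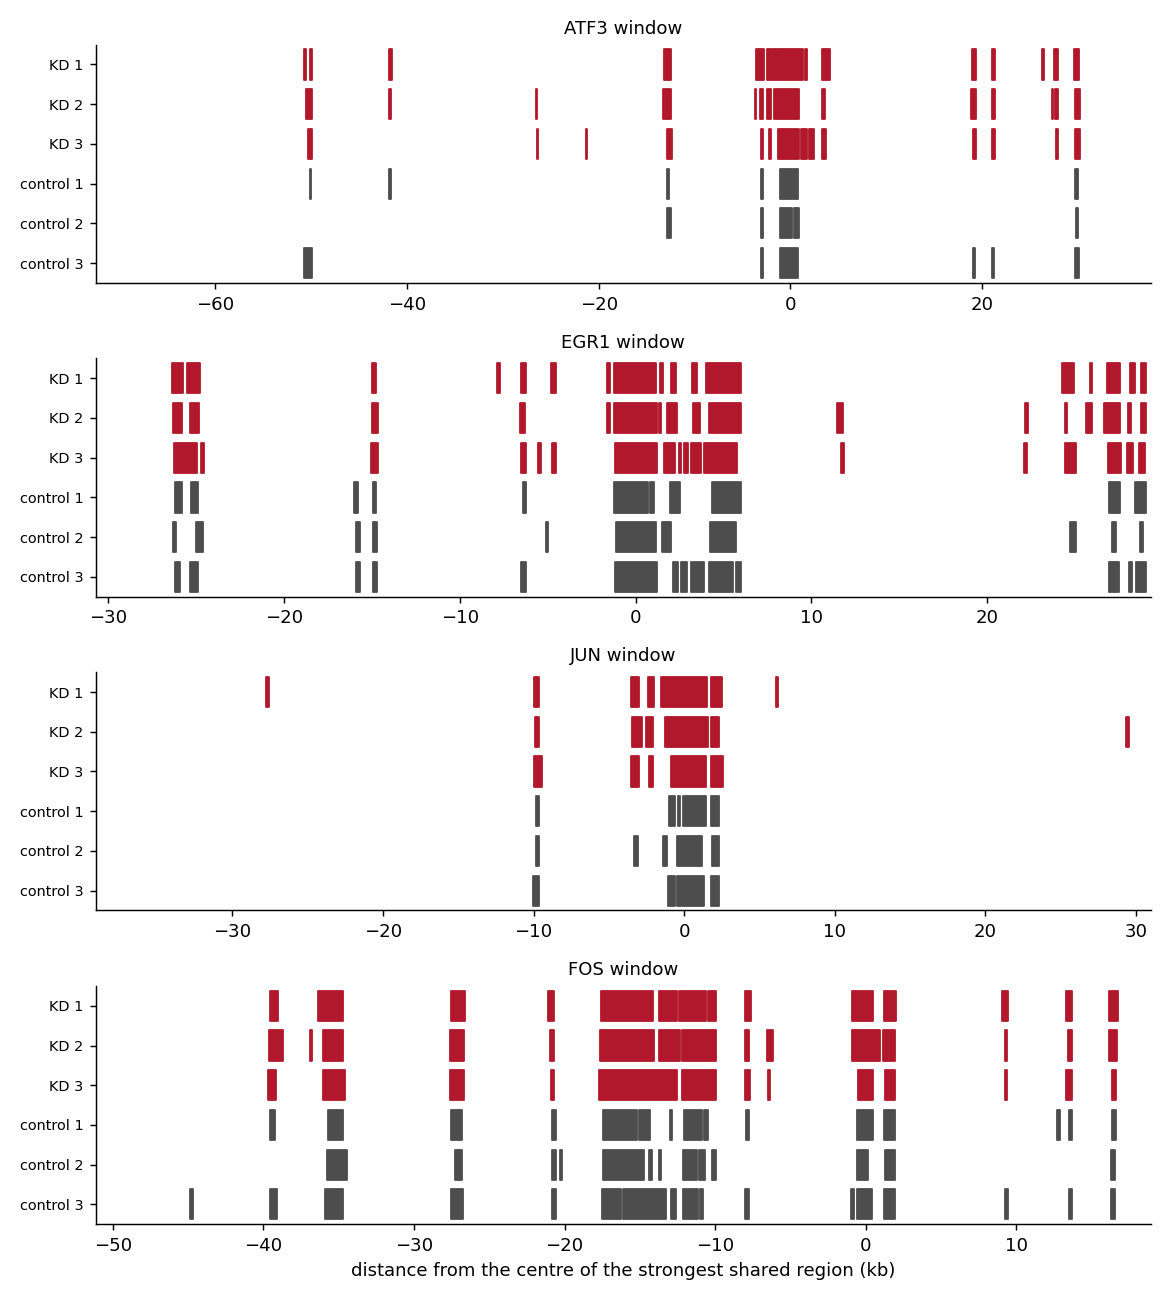
Peaks of each library (rows, KD for ZNF436 knockdown in red and control in grey) in the windows of ATF3, EGR1, JUN and FOS, drawn to scale as distance in kb from the centre of the strongest region called in all 6 libraries. The ATF3 rows show added peaks about 20 to 30 kb to the right of the centre in all 3 knockdown libraries, and in the JUN rows 1 wide knockdown peak stands where control libraries have 2 or 3.

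ATF3 had the largest ratio of peak numbers among the 8 genes, 2.39. Its window held 15, 14 and 14 peaks in the knockdown libraries and 7, 5 and 6 in the control libraries, a mean of 14.3 ± 0.58 in knockdown and 6.0 ± 1.0 in control (SD, n = 3 each). Every knockdown library had more than every control library. Per 10000 peaks of the list, ATF3 had 1.29, 1.37 and 1.59 in knockdown and 1.38, 0.932 and 0.878 in control, which overlapped through control replicate 1. Relative to the median, its share was higher by 0.56 on the log2 scale (limma, log2 change 0.37, SE 0.22, adjusted p = 0.271) and did not pass the test. In the fit of peak numbers without scaling to the list, ATF3 was the only 1 of the 8 windows called (limma, log2 change 1.20, SE 0.19, adjusted p = 0.0156), where 22.0% of all features were called higher and the median change was 0.64. With lists of equal length the window had 6, 9 and 4 peaks in knockdown and 7, 5 and 4 in control, and the groups overlapped.

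The additional peaks of ATF3 lay on both sides of a central region that every library shared. Left of it the knockdown libraries had 6, 7 and 6 peaks and the control libraries 4, 2 and 2, and right of it the knockdown libraries had 6, 6 and 6 and the control libraries 1, 1 and 3. The central region, chr1:212780660-212784209, had percentiles of 98.3 to 99.5 in knockdown and 93.9 to 95.9 in control and covered 3135, 2644 and 2826 bp in knockdown and 1757, 1791 and 1928 bp in control. Of the 16 regions, 3 were called in all knockdown and no control libraries, the most of any member. They were chr1:212780013-212780475, chr1:212785723-212786537 and chr1:212809943-212810394, which lay 184, 1513 and 1610 bp from the nearest region called in every library. The last of these ranked highest of the 3, with percentiles of 66.3, 62.0 and 39.9 in knockdown replicates 1 to 3. The region chr1:212801289-212801836 had percentiles of 83.2, 84.6 and 75.5 in knockdown and 36.2 in control replicate 3, with no peak in the other control libraries, and lay 10168 bp from the nearest region called in every library. Close by, chr1:212803440-212803817 showed the same calls, with 34.2 to 57.0 in knockdown and 28.4 in control replicate 3. The nearest protein-coding genes in the order of the GRCh38 annotation are NENF and GARIN4, and the window may hold parts of such neighbours.

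EGR1 had more peaks in knockdown in the lists as deposited, and fewer in lists cut to equal length. Its window held 17, 17 and 18 peaks in knockdown and 11, 11 and 14 in control, and every knockdown library was above every control library. As a share of the list, the relative log2 change was -0.12 (limma, SE 0.19, adjusted p = 0.304). With lists of equal length the order turned, with 6, 6 and 7 peaks in knockdown and 11, 10 and 13 in control (relative log2 change -0.79, SE 0.12, limma adjusted p = 0.0678). In the stronger part of each list, which is not cut to equal length, the window held 7, 6 and 7 peaks in knockdown and 3, 5 and 6 in control. As a share of those parts, the log2 change was -0.35, or 0.016 relative to the median (limma, SE 0.22, adjusted p = 0.230). The strongest region of EGR1, chr5:137799480-137801925, overlapped in extent between the groups, with 2335, 2421 and 2376 bp covered in knockdown and 2130, 2231 and 2368 bp in control. Of 21 regions, 7 had peaks in every library and 3 in all knockdown libraries and 1 control library. These 3 were chr5:137803844-137804599, chr5:137824964-137825784 and chr5:137828689-137829096, with percentiles of 17.5 to 53.7 in the knockdown lists, and the first and last lay 2 and 19 bp from a region called in every library.

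The windows were fixed by position, and some peaks in them may belong to other genes. Gene starts were not placed on hg19, so the strongest region of a window need not lie at the gene that names it. In the order of protein-coding genes in the GRCh38 annotation, ERCC1 and RTN2 are the neighbours of FOSB, CCDC85B and C11orf68 those of FOSL1, HOOK2 and PRDX2 those of JUNB, and REEP2 and ETF1 those of EGR1. FOS has TMED10 before it and JDP2, whose protein pairs with Jun proteins, after it. The other AP-1 partners and immediate early genes of a longer list could not be placed on hg19 and were not analysed here.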

How the data were processed

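Accessible sites were measured by ATAC-seq in 6 libraries. The deposited files list peaks with position on hg19 and an integer score. The submitters' processing notes name hg19, bedtools 2.30.0 and Bowtie2 2.4.5. Which step each served, the calling threshold, any Tn5 shift and duplicate removal are not stated in the sources used here. The score in the authors' deposited lists ranked peaks within a list only. Peak names begin with MACS and carry 1 library's name.

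Peaks were counted in a window by midpoint, and those numbers were computed here. Peaks of any library that shared 1 bp or more were joined into regions. Windows were fitted with 50 kb bins of chromosomes 1 to 22 and X in limma 3.58.1 (R 4.3.3; trended, robust) on log2((peaks + 0.5) / list length × median list length), with a mean of at least 2 peaks and Benjamini-Hochberg adjustment over all features. The bins that overlap a window stayed in. On simulated counts with known changes the fit missed most changed bins, so that a window that was not called may still differ. Group totals were compared by an exact permutation test (Python 3.11.15, scipy 1.17.1). Depth is unknown. All 8 members are named, with the strongest shared region of each window and regions complete in 1 group and called at most once in the other. A window's widest region and a second strong region of FOS and of FOSB were added after their values were seen. Members, lists and tests were chosen with earlier results of these data known. The limma p-values set a change against the spread between these libraries, moderated over all features. That spread holds differences between differentiations and any that come from list length or depth. The exact permutation p was at its floor wherever the groups separated fully, whatever their spread.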

Additional observations from a re-analysis of the deposited data

How the results depend on the processing

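The ratio of peaks in the windows, 1.28 as deposited, turned to 0.803 with lists of equal length by score and was between 1.23 and 1.38 with 1 library left out. The share of the list kept its direction under all alternatives run, at a ratio of 0.729 (0.685 to 0.774 with 1 library left out). In the main fit, 2 windows were called lower and 0 higher. There were 0 lower with lists of equal length, no scaling, scaling to the median ratio or bases covered. There was 1 lower without the filter or with peaks overlapping the window, and 3 were lower with a pseudocount of 1. The stronger part of each list gave 2, which were other windows, JUNB and FOSB. With 1 library left out, 0 to 2 were lower. Without scaling 1 was higher. The cause of these shifts was not tested. Of 128 values of single windows under alternatives, 102 kept direction and side of the threshold, 18 lost the call, 5 gained it and 3 changed sign: FOSL2 to 0.073 for bases covered, and EGR1 to 0.016 with the stronger part of each list and to 0.020 without knockdown replicate 1 (from -0.20 to 0.020 with 1 library left out). With no scaling, scaling to the median ratio or a replicate block, the relative change is fixed by construction. In those settings only the side of the threshold could move.

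The regions of knockdown libraries alone numbered 8, and 0 with lists of equal length and 2 with the stronger part of each list. Under looser rules they numbered 19 where 2 of 3 libraries sufficed and 8 to 16 with 1 library left out. Regions called only in control numbered 2, and 1 with lists of equal length or with peaks within 100 bp merged, 0 with the stronger part and 1 to 2 with 1 library left out. With the replicate number as a block (replicate block), the ratio of peaks was 1.30, the ratio of shares 0.733, and 2 windows were called lower. To look for pairing, correlations over the 14414 features were taken. Those of same-numbered knockdown and control libraries were -0.022, 0.035 and 0.0029. Those of differently numbered libraries ran from -0.048 to 0.045, a range that holds the same-numbered values. The replicate numbers were therefore not used to pair libraries. These correlations served only to compare same-numbered with differently numbered libraries. They do not measure how alike the accessible sites of the groups were. Depth is unknown, and weak regions of 1 or 2 peaks limit every count.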
